A study of Mus musculus with 9 samples.

Results

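The Hoxb genes Hoxb2 to Hoxb9 were followed in LSK cells of mouse bone marrow, which lack markers of mature lineages, carry cKit and Sca1 on their surface, and hold blood stem cells and early progenitors. The 8 genes were taken by symbol from the 39179 gene rows of the count table, and all 8 were among the 18576 genes with enough counts to be tested. The mutant group (cKI_Mx+, Dnmt3a+/m) had 4 libraries from animals with a conditional mutant Dnmt3a allele at its own locus and the Mx1-Cre transgene. The Cre-negative group (cKI_Cre-, Dnmt3a+/- in the design text) had 2 libraries from animals with the conditional allele and no Cre, and the wild-type group (wt_Mx+, Dnmt3a+/+) had 3 libraries from animals with Mx1-Cre. All animals were C57BL/6, were sampled at 6 months of age and had received 5 injections of poly(I:C), an inducer of interferon. Mx1-Cre is driven by an interferon-inducible promoter that is active in blood cells and in other tissues, and the Cre-negative group differs from wild type in the allele and in Cre at once, so these cannot be told apart. Libraries are named by M (mutant), C (Cre-negative) or W (wild type), followed by the number that ends the sample's title. The labels give 1 number per library and do not say how the animals were raised or handled, so p-values measure the spread between these libraries.

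Hox genes encode homeodomain transcription factors and lie in 4 clusters, in which genes at one end act anteriorly and genes at the other end posteriorly in the embryo. In mouse bone marrow Hoxb4 is known for expanding blood stem cells when overexpressed, and Hox proteins bind DNA together with Meis and Pbx proteins. Dnmt3a is a de novo DNA methyltransferase, and in human acute myeloid leukaemia high HOXB levels accompany NPM1 mutation, which often occurs together with DNMT3A mutation.

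Library depth was even, with 47792306 to 58405879 counts assigned to genes. Dnmt3a averaged 160 ± 7.69 CPM in mutant libraries (SD, n = 4), stood at 118 and 93.5 CPM in Cre-negative libraries and averaged 159 ± 12.9 CPM in wild type (SD, n = 3). CPM denotes counts-per-million of the scaled library size. Both Cre-negative libraries were low, with a log2 fold change over wild type of -0.59 (SE 0.13, unadjusted p = 0.000722, adjusted p = 0.594 in edgeR), and mutant over wild type was at 0.01 (SE 0.10). DESeq2 called Dnmt3a, as lower in Cre-negative than in wild type (adjusted p = 0.0131) and higher in mutant than in Cre-negative (adjusted p = 0.00761). In edgeR without C780 the log2 fold changes were -0.80 for Cre-negative over wild type and 0.83 for mutant over Cre-negative. Without C819 they were -0.45 and 0.48. Each of these edgeR fits rests on a lone Cre-negative library, so their calls are not read. All 10 markers of LSK and stem cells were detected and tested, with Kit, Ly6a and Cd34 among them, and their summed level ranged from 2410 to 2958 CPM in mutant, from 1940 to 3025 CPM in Cre-negative and from 2755 to 2812 CPM in wild-type libraries. Ly6a, which encodes Sca1, averaged 35.8 ± 3.15 CPM in mutant (SD, n = 4), 28.9 ± 2.40 CPM in Cre-negative (SD, n = 2) and 41.0 ± 4.85 CPM in wild-type libraries (SD, n = 3). Cre-negative C819 stood apart by erythroid markers, which summed to 1950 CPM there, against 104 to 263 CPM in the other 8 libraries. It was kept in the fits of all 9 libraries, and the Hoxb results of the Cre-negative group are also given without it.

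The cluster spans chromosome 11 of GRCm38 from Hoxb9 (96271457 to 96276595) through Hoxb8, Hoxb7, Hoxb6, Hoxb5, Hoxb4 (96318267 to 96321638) and Hoxb3 (96323326 to 96347930) to Hoxb2 (96350525 to 96354012), all on the plus strand. Antisense genes lie across it on the minus strand. Exons of Hoxb3os cover 52.9% of the exon bases of Hoxb3 and 27.3% of those of Hoxb2, and exons of Hoxb5os cover 3.59% of those of Hoxb5. The other 5 members share no exon base with a gene of the opposite strand. Of 131 genes in the table whose exons lie wholly under exons of the other strand, 103 (78.6%) had 0 counts in all 9 libraries, against 35 of 264 genes (13.3%) that were covered over at least 50% of their exon bases and kept at least 200 free bases. Yet 16 of the 131 (12.2%) held 100 or more counts over the 9 libraries, against 171 of the 264 (64.8%). Whether strand was used cannot be decided from this, because these sets of genes were not matched in type or level. The setting itself is not given. Reads of Hoxb2 or Hoxb3 and of Hoxb3os therefore cannot be fully told apart.

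The 250 bases before the start of a gene are shown for the most and the least abundant member, because Dnmt3a methylates cytosine in CpG. Capitals mark each CpG. The sequences are from RefSeq on GRCm38.p6, plus strand, which matched 2 of the 8 members. Hoxb4 (chr11:96318017-96318266) held 14 CpG and Hoxb8 (chr11:96281655-96281904) held 12, against a median of 6 over 32851 promoters, of which 29.4% held at least as many as Hoxb4 and 33.5% at least as many as Hoxb8.
Hoxb4 upstream: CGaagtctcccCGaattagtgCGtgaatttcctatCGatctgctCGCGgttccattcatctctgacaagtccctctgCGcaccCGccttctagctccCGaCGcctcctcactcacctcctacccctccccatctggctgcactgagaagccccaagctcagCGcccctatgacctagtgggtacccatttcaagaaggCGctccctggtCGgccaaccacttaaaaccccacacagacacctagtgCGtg
Hoxb8 upstream: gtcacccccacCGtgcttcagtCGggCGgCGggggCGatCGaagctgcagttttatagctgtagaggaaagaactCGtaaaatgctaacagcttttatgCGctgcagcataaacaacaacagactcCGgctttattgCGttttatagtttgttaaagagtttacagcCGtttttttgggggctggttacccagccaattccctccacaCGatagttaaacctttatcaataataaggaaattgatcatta
Letters of 4 motifs were searched on both strands in the same windows. The retinoic acid receptor half-site AGGTCA occurred 1 time before Hoxb4 and 0 times before Hoxb8 (14.0% of all promoters hold it). The NF-Y box CCAAT occurred 0 times before Hoxb4 and 1 time before Hoxb8 (33.8% of all promoters), the TATA box TATAAA 0 and 2 times (12.4%), and the USF E-box CACGTG in neither (6.02%). These are matches of letters, and methylation or binding was not measured here.

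Among the 8 members Hoxb4 had the most counts in every library. With the antisense genes Hoxb3os and Hoxb5os included, its share was 40.4% to 44.0% in mutant, 42.2% and 45.6% in Cre-negative and 48.0% to 50.4% in wild-type libraries. In wild type it averaged 5.61 CPM per kilobase of exon (range 4.51 to 7.79, n = 3), which was apart from all other members. Next came Hoxb6 (0.699 CPM per kilobase), the member whose overexpression drives myeloid expansion in mice, Hoxb5 (0.529), whose reporter marks long-term stem cells in mice, and Hoxb3 (0.485). Hoxb7, used widely as a ureteric bud promoter, followed at 0.297 CPM per kilobase. The ranges of these 4 overlapped from each one to the next, so their order is not fixed by these libraries. Below them, and each apart from its neighbours on the full exon length, stood Hoxb2 (0.155), which patterns the hindbrain, Hoxb9 (0.0895), which acts in the thoracic skeleton, and Hoxb8 (0.0240), known for holding myeloid progenitors in an immature state when overexpressed. With only the exon bases free of antisense exons as length, Hoxb3 stood at 1.03 ± 0.511 and Hoxb2 at 0.214 ± 0.0644 CPM per kilobase (SD, n = 3). By mean this puts Hoxb3 second in the order. On this length the ranges of Hoxb3 and Hoxb6 overlapped, as did those of Hoxb2 and Hoxb7, so these places are not fixed either. On the same free length Hoxb3os stood above Hoxb4. It was at 12.1 against 5.74 CPM per kilobase in mutant, 10.8 against 5.56 in Cre-negative and 7.64 against 5.61 in wild type. On the full exon length Hoxb3os stood below Hoxb4, at 2.88 CPM per kilobase in mutant, 2.58 in Cre-negative and 1.82 in wild type. Which length applies depends on the strand setting, which is not given, so the order of these 2 genes is not fixed. The map of the cluster by position shows the peak at Hoxb4 in all 3 groups.

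**Figure D1:**
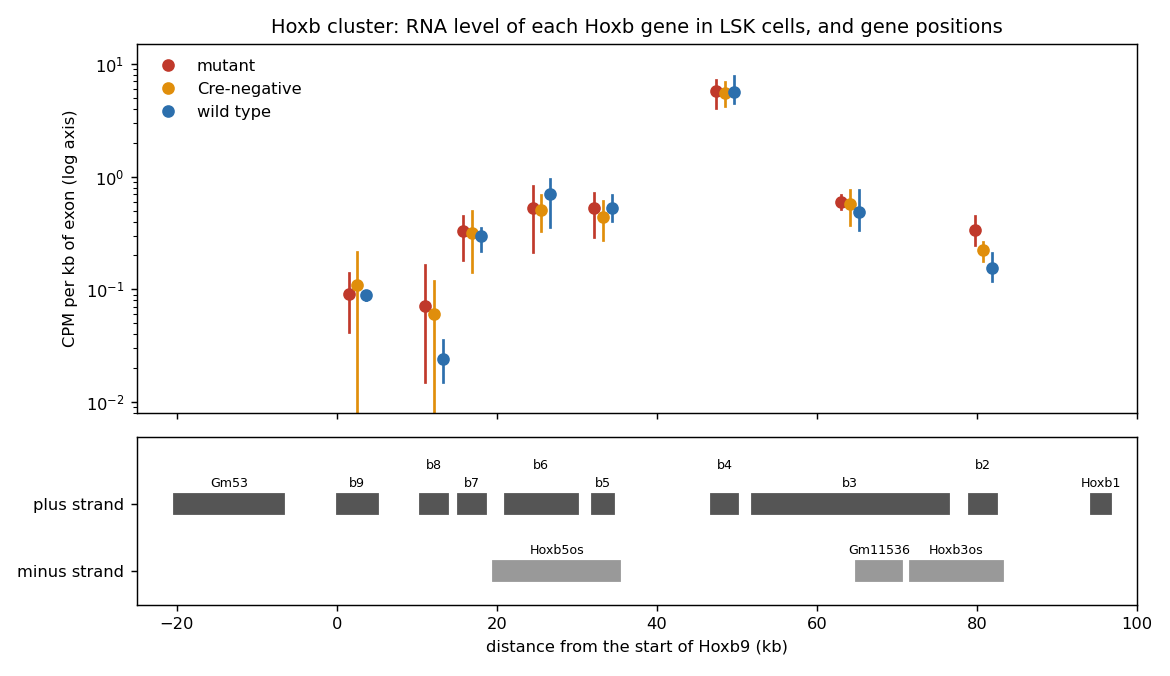
The upper panel plots the level of each Hoxb gene in CPM per kilobase of exon on a log axis against distance from the start of Hoxb9 in kb, with the group mean as a point and the range over libraries as a line (mutant n = 4, Cre-negative n = 2, wild type n = 3). A line that reaches the lower edge runs on below the axis, as for Hoxb8 and Hoxb9 in Cre-negative C819, and the lower panel gives gene positions by strand. Hoxb4 stands highest in every group and Hoxb8 and Hoxb9 lowest.

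Of all Hox counts, the 8 Hoxb genes held 10.2% to 16.5% in mutant, 13.9% and 16.0% in Cre-negative and 10.9% to 18.8% in the wild-type libraries. Nearly all the rest came from the Hoxa cluster. Hoxc genes summed to 4 to 26 counts and Hoxd genes to 0 to 3 counts per library. Hoxb4 made up 66.0% to 68.6% of the Hoxb counts in mutant, 66.7% and 73.7% in Cre-negative and 67.3% to 72.7% in the wild-type libraries. Per kilobase, Hoxa9, a driver of stem cell and leukaemic self-renewal, averaged 13.8 CPM in mutant, 12.4 in Cre-negative and 13.0 in the wild-type libraries, and Hoxa7, Hoxa6, Hoxa10 and Hoxa5 stood between 3.80 and 7.30 CPM per kilobase in wild type. Hoxb4 lay within the span of these 5 Hoxa genes and the other Hoxb members lay below all of them.

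Both ends of the cluster were nearly silent. Hoxb1, the anterior neighbour of Hoxb2, had 1 count, in mutant M830, and Hoxb13 had 0 counts in all 9 libraries. The 2 microRNA genes of the cluster are shown because one of them, miR-196a, pairs almost completely with Hoxb8 RNA and is known to direct its cleavage in mouse embryos. Capitals mark the seed, bases 2 to 8, and in the Hoxb8 site (chr11:96284888-96284909, plus strand, in the 3′ untranslated region, read from the GENCODE transcript on GRCm38) the 7 bases opposite the seed.
mmu-miR-196a-5p: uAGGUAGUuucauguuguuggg
mmu-miR-10a-5p: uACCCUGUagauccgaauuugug
Hoxb8 site: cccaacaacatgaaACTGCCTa
Of the 22 bases of miR-196a, 21 pair with the site by Watson-Crick rules and 1 as G with U. The gene of this microRNA, Mir196a-1, had 0, 0, 6 and 1 counts in mutant, 12 and 1 in Cre-negative, and 0, 3 and 0 in the wild-type ones, and Mir10a, which lies between Hoxb5 and Hoxb4, had 0 in all. The library kit takes total RNA and is not made to capture mature microRNAs, so these counts say little of their level.

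Mutant and wild-type animals both carry Mx1-Cre and differ in the Dnmt3a allele. Hoxb2 was the one member whose libraries did not overlap between the groups, at a mean 2.15-fold that of wild type in the fitted model. No member passed the adjusted threshold. Over all genes, edgeR's quasi-likelihood test called 0 of 18576 at an adjusted p under 0.05 (0%), and 589 (3.17%) had an unadjusted p under 0.05. DESeq2 called 36 genes (0.194%) and none of them was a Hoxb gene.

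Hoxb2 stood at 0.859, 0.857, 1.55 and 1.41 CPM in mutant M824, M827, M829 and M830, at 0.926 and 0.623 CPM in Cre-negative C780 and C819, and at 0.726, 0.482 and 0.416 CPM in wild-type W820, W823 and W825. Every mutant library lay above every wild-type library, and the Cre-negative libraries overlapped both. The group sums behind these levels were small, 253 counts in mutant, 78 in Cre-negative and 85 in wild type. The log2 fold change of mutant over wild type was 1.11 (SE 0.36, 95% interval 0.32 to 1.90), with an unadjusted p = 0.0107 and an adjusted p = 0.998 in edgeR's quasi-likelihood test. Over the alternatives the adjusted p was at least 0.147, its value in limma-voom, and the log2 fold change ranged from 0.95 to 1.44. Of the 8 members 1 did not overlap in CPM, against 8.32% of all genes tested, so a single such gene among 8 is near the background.

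Hoxb4 stood at 10.3, 12.7, 17.4 and 18.4 CPM in mutant M824, M827, M829 and M830, at 17.7 and 10.8 CPM in Cre-negative C780 and C819, and at 20.0, 11.6 and 11.6 CPM in wild-type W820, W823 and W825. All 3 groups overlapped, and the highest library was 1.78-fold the lowest in mutant, 1.63-fold in Cre-negative and 1.73-fold in wild type. The log2 fold change of mutant over wild type was 0.03 (95% interval -0.58 to 0.64, adjusted p = 0.998 in edgeR). The interval leaves out a change of 1 on this scale in either direction.

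Hoxb3, which perturbs lymphoid and myeloid development when overexpressed in mice, stood at 2.34, 2.18, 2.95 and 2.58 CPM in mutant M824, M827, M829 and M830, at 3.26 and 1.59 CPM in Cre-negative C780 and C819, and at 3.24, 1.43 and 1.51 CPM in wild-type W820, W823 and W825. The mutant libraries lay within the wild-type range, between 1 high and 2 low wild-type libraries. The log2 fold change was 0.29 (SE 0.35), with an adjusted p = 0.998 in edgeR.

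Hoxb5 averaged 1.47 ± 0.530 CPM in mutant (SD, n = 4) and 1.47 ± 0.405 CPM in wild type (SD, n = 3). The log2 fold change was -0.0033 (95% interval -0.85 to 0.84). Hoxb6 stood at 0.419, 0.732, 1.61 and 1.35 CPM in mutant M824, M827, M829 and M830, at 1.35 and 0.641 CPM in Cre-negative C780 and C819, and at 1.86, 0.703 and 1.55 CPM in wild-type W820, W823 and W825. Its spread within a group exceeded the difference between groups, with a log2 fold change of mutant over wild type of -0.42 (SE 0.50, adjusted p = 0.998 in edgeR). Hoxb7 averaged 0.505 ± 0.170 CPM in mutant (SD, n = 4) and 0.458 ± 0.104 CPM in wild type (SD, n = 3). The plot of CPM by library shows these overlaps gene by gene.

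**Figure D2:**
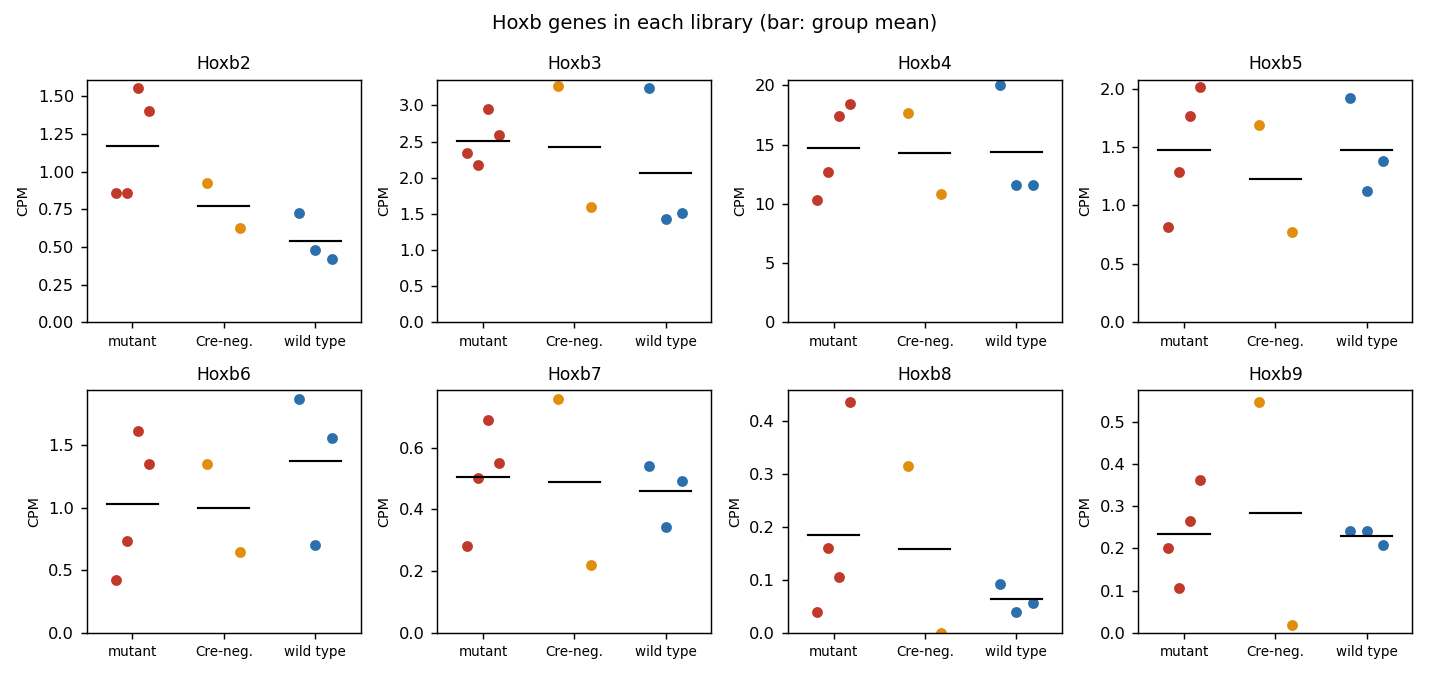
Each panel plots 1 Hoxb gene in CPM from 0, with 1 point per library and a bar at the group mean (mutant n = 4, Cre-negative n = 2, wild type n = 3). Only for Hoxb2 do the mutant points, from 0.857 to 1.55 CPM, lie wholly above the wild-type points, from 0.416 to 0.726 CPM.

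The 2 posterior members were close to the limit of these libraries, where 3 counts correspond to 0.0530 to 0.0632 CPM. Hoxb8 had 2, 9, 6 and 23 counts in mutant M824, M827, M829 and M830, 15 and 0 in Cre-negative C780 and C819, and 5, 2 and 3 in wild-type W820, W823 and W825. Its mean was highest in the mutant group, where mutant M830 held 23 of 40 counts, and the log2 fold change over wild type was 1.51 with a 95% interval from -0.89 to 3.92 (adjusted p = 0.998 in edgeR). Hoxb9 had 10, 6, 15 and 19 counts in the mutant, 26 and 1 in Cre-negative, and 13, 12 and 11 in the wild-type ones. No difference in either gene was detectable at this depth.

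Over the 8 members the median log2 fold change of mutant over wild type was 0.09, against -0.02 over all genes tested. Of the members 6 were above 0 and 2 below, where 45.7% of all genes tested were above 0. With 1 library left out this median ranged from -0.08 to 0.34. It was below 0 without M829 (-0.03, with 3 members above 0 and 5 below) and without M830 (-0.08), and highest without W820 (0.34). The Hoxb sum was 15.3, 18.5, 26.3 and 27.1 CPM in mutant M824, M827, M829 and M830, 26.6 and 14.7 CPM in Cre-negative C780 and C819, and 28.6, 15.9 and 17.2 CPM in wild-type W820, W823 and W825. The highest library was at 27.1 CPM in mutant, 26.6 CPM in Cre-negative and 28.6 CPM in wild type and the lowest at 15.3, 14.7 and 15.9 CPM in the same groups, so the sum varied more within groups than between them. In these bulk libraries, fewer cells that express a gene and less RNA per cell cannot be told apart.

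**Figure D3:**
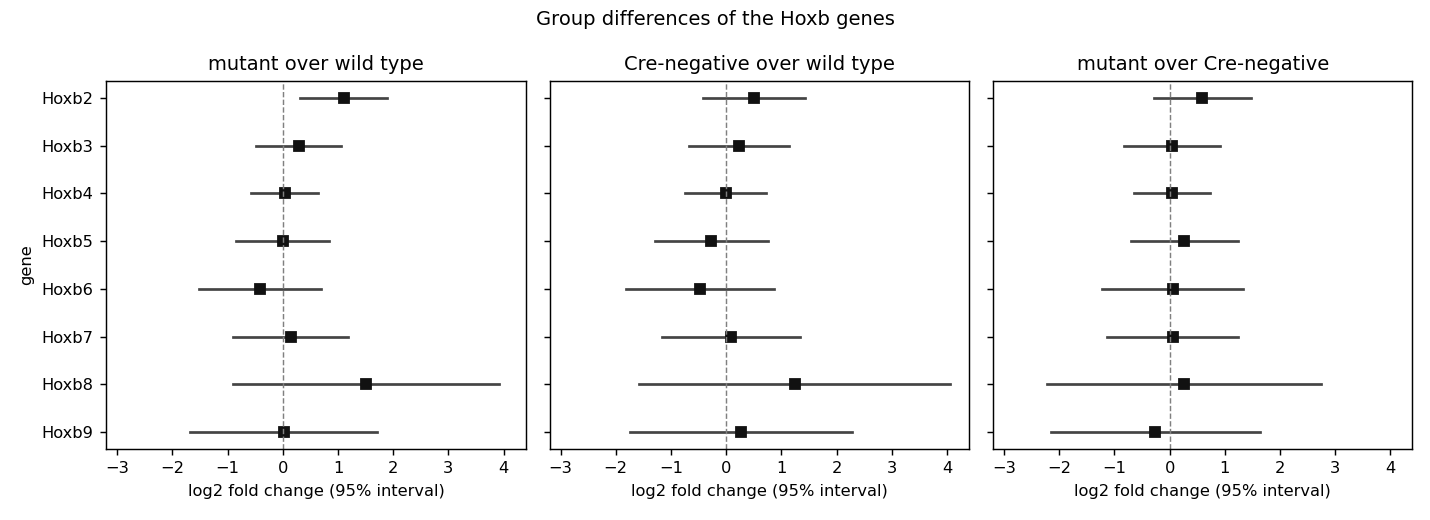
Squares give the log2 fold change of each Hoxb gene in edgeR's fit of all 9 libraries and lines its 95% interval, for mutant over wild type, Cre-negative over wild type and mutant over Cre-negative, with the broken line at 0. The interval of Hoxb2 in mutant over wild type, from 0.32 to 1.90, is the one that leaves out 0.

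Cre-negative animals have the conditional allele without Cre, and were compared with wild type with Cre. Hoxb4 averaged 14.3 CPM in Cre-negative (n = 2) and 14.4 CPM in wild-type libraries (n = 3), and no Hoxb gene passed. The log2 fold changes were 0.51 (SE 0.42) for Hoxb2, 0.23 (SE 0.41) for Hoxb3, -0.01 (SE 0.33) for Hoxb4, -0.27 (SE 0.46) for Hoxb5 and -0.47 (SE 0.61) for Hoxb6. They were 0.08 (SE 0.56) for Hoxb7, 1.24 (SE 1.27) for Hoxb8 and 0.27 (SE 0.91) for Hoxb9. EdgeR called 0 genes in all (0%), and 972 (5.23%) had an unadjusted p under 0.05, with no member among them. DESeq2 called 55 genes (0.315%) and no Hoxb gene. Leaving out C780 or C819 leaves a lone Cre-negative library, so the calls of those fits are not read for the members. In CPM 0 of the 8 members were without overlap, against 11.4% of all genes tested.

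The Cre-negative libraries themselves lay at opposite ends of the Hoxb range. Cre-negative C780 was above Cre-negative C819 for all 8 members, from 1.49-fold for Hoxb2 to 3.45-fold for Hoxb7 among the 6 with more than 3 counts in both. Hoxb8 had 15 and 0 counts and Hoxb9 26 and 1 in Cre-negative C780 and C819. Without C819 the log2 fold changes over wild type were 0.76 for Hoxb2, 0.65 for Hoxb3, 0.28 for Hoxb4, 0.17 for Hoxb5, -0.05 for Hoxb6 and 0.71 for Hoxb7, and without C780 they were 0.17, -0.41, -0.44, -0.97, -1.13 and -1.08 for the same genes. The median log2 fold change of the members over wild type was 0.16, and it was 0.68 without Cre-negative C819 and -1.03 without Cre-negative C780. Cre-negative C819 also had the lowest Hoxa sum, 77.1 CPM against 123 to 165 CPM in the other 8 libraries, and the high erythroid markers given above. The part of these in its low Hoxb values was not tested.

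Mutant and Cre-negative animals share the conditional allele and differ in Cre. The log2 fold changes were 0.60 (SE 0.40) for Hoxb2, 0.05 (SE 0.39) for Hoxb3, 0.04 (SE 0.31) for Hoxb4, 0.27 (SE 0.44) for Hoxb5, 0.05 (SE 0.57) for Hoxb6 and 0.06 (SE 0.53) for Hoxb7. For Hoxb8 and Hoxb9 they were 0.27 (SE 1.12) and -0.26 (SE 0.86). EdgeR called 0 genes (0%), with 978 (5.26%) at an unadjusted p under 0.05 and no member among them, and DESeq2 called 22 genes (0.121%) and no Hoxb gene. Fits without C780 or without C819 rest on a lone Cre-negative library, so their calls are not read for the members. In CPM 0 of 8 members were without overlap, against 12.4% of all genes tested. The members' median was 0.06, and it became 0.97 without Cre-negative C780 and -0.35 without Cre-negative C819. The 3 comparisons share libraries pairwise and are not independent of one another.

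Because the members tended to be high or low in the same libraries, each was also set against Hoxb4 of the same library. This ratio was chosen after the values were seen and is given as a description, with no test. Hoxb2 had 8.30, 6.75, 8.94 and 7.62 counts per 100 Hoxb4 counts in mutant M824, M827, M829 and M830, 5.23 and 5.74 in Cre-negative C780 and C819, and 3.63, 4.16 and 3.60 in wild-type W820, W823 and W825. The 3 groups did not overlap, with mutant above Cre-negative and Cre-negative above wild type. The means with SD were 7.90 ± 0.939 in mutant (n = 4), 5.49 ± 0.362 in Cre-negative (n = 2) and 3.80 ± 0.314 in wild type (n = 3). On the log2 scale the ratio of means was 1.06 for mutant over wild type, 0.53 for Cre-negative over wild type and 0.53 for mutant over Cre-negative. With each library left out in turn it ranged from 0.99 to 1.13, from 0.46 to 0.60 and from 0.46 to 0.60.

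Among the other 6 ratios, Hoxb5 was lower in Cre-negative (9.51 and 7.09) than in wild type (9.59, 9.71 and 11.9), where the nearest libraries were at 9.51 and 9.59, and the rest overlapped in every comparison. Over all genes tested, the ratio to Hoxb4 was without overlap for 3% between mutant and wild type, 5.82% between Cre-negative and wild type and 4.91% between mutant and Cre-negative. Of the 7 members with a ratio, 1, 2 and 1 were without overlap in these comparisons. Pearson correlations of members with Hoxb4 in log2 CPM ran from 0.61 for Hoxb2 to 0.92 for Hoxb5. Genes that do not follow Hoxb4 take on its spread in this ratio. The shares over all genes are therefore not a matched background for the members.

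Hoxb3os, the antisense gene that runs across Hoxb2 and the end of Hoxb3, followed Hoxb2. It stood at 9.14, 9.68, 14.9 and 14.8 CPM in mutant M824, M827, M829 and M830, at 13.4 and 8.30 CPM in Cre-negative C780 and C819, and at 10.2, 6.68 and 6.04 CPM in wild-type W820, W823 and W825. Wild-type W820 lay above mutant M824 and M827, so the groups overlapped in CPM. Its log2 fold change of mutant over wild type was 0.67 (SE 0.27, 95% interval 0.07 to 1.26), with an unadjusted p = 0.0319 and an adjusted p = 0.998 in edgeR. Per 100 Hoxb4 counts it had 76.2 to 88.4 counts in mutant, 75.5 and 76.5 in Cre-negative and 50.9 to 57.7 in the wild-type libraries. On this measure both groups with the conditional allele lay above wild type, and they overlapped each other.

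The other antisense transcripts and neighbours within 100 kb that could be tested did not pass in any comparison, and edgeR called no gene at all there. Hoxb5os averaged 1.19 CPM in mutant, 1.43 CPM in Cre-negative and 0.835 CPM in wild type, and Gm53, a long noncoding RNA gene beyond Hoxb9, 0.162, 0.333 and 0.140 CPM in the same groups. Gm11536, which lies within the span of Hoxb3 on the other strand, and the pseudogenes Gm11539 and Gm11531 had log2 fold changes of mutant over wild type of 0.07 (SE 0.68), -0.27 (SE 0.31) and -0.02 (SE 0.33).

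Hoxb2 was also set against Hoxb3os itself. It had 9.39, 8.86, 10.5 and 9.51 counts per 100 Hoxb3os counts in mutant M824, M827, M829 and M830, 6.93 and 7.51 in Cre-negative C780 and C819, and 7.13, 7.21 and 6.90 in wild-type W820, W823 and W825. Here the mutant libraries stood above all others, while Cre-negative and wild type overlapped. This ratio too was chosen after the values were seen and was not tested. The share of all genes without overlap on it was not computed, so the separation has no background to be judged by. Whether the reads counted for Hoxb2 come from its own strand could not be seen from these counts.

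**Figure D4:**
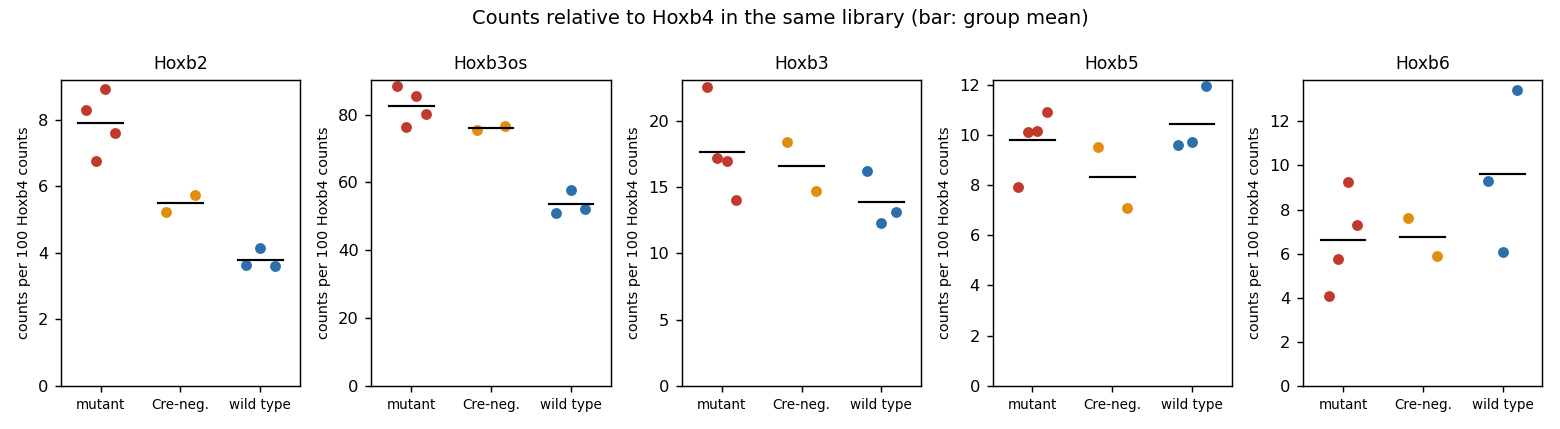
Each panel plots the counts of 1 gene per 100 Hoxb4 counts of the same library, from 0, with 1 point per library and a bar at the group mean (mutant n = 4, Cre-negative n = 2, wild type n = 3). For Hoxb2 the groups are apart, at means of 7.90, 5.49 and 3.80, and for Hoxb3os the mutant and Cre-negative points lie above the wild-type points, while Hoxb3 and Hoxb6 overlap throughout.

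Libraries with and without Y-linked transcripts occur in each group, so values were also compared within each kind. Among the 5 libraries that held them, Hoxb2 averaged 0.858 CPM in mutant (n = 2), stood at 0.926 CPM in Cre-negative C780 and averaged 0.449 CPM in wild type (n = 2). Among the 4 without them, it averaged 1.48 CPM in mutant (n = 2) and stood at 0.623 CPM in Cre-negative C819 and 0.726 CPM in wild-type W820. The ratio of mutant to wild type was 1.91 and 2.04, a direction that is fixed because no Hoxb2 value overlapped between these groups, and the second ratio rests on 1 wild-type library. The ratio of mutant to Cre-negative was 0.926 and 2.38, with 1 Cre-negative library in each. Hoxb4 was 0.996-fold and 0.896-fold in mutant over wild type.

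The share of reads that fell outside annotated exons was set beside the level of the cluster. It was 13.6%, 15.7%, 19.4% and 18.5% in mutant M824, M827, M829 and M830, 18.2% and 17.8% in Cre-negative C780 and C819, and 23.1%, 13.7% and 17.1% in wild-type W820, W823 and W825. The 4 libraries with the highest Hoxb sum had shares of at least 18.2%, and the other 5 had shares of at most 17.8%. This split is narrow, since C780 and C819 differ little in share and lay at 26.6 and 14.7 CPM in Hoxb sum. Among the 5 lower libraries the sum did not follow the share, with 18.5 CPM in M827 at 15.7% and 14.7 CPM in C819 at 17.8%. With the share as a covariate, chosen after the values were seen, Hoxb2 of mutant over wild type had a log2 fold change of 1.22 (SE 0.28), with an adjusted p = 0.844 in edgeR. The part of this share in the level of the cluster was not tested further.

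**Figure D5:**
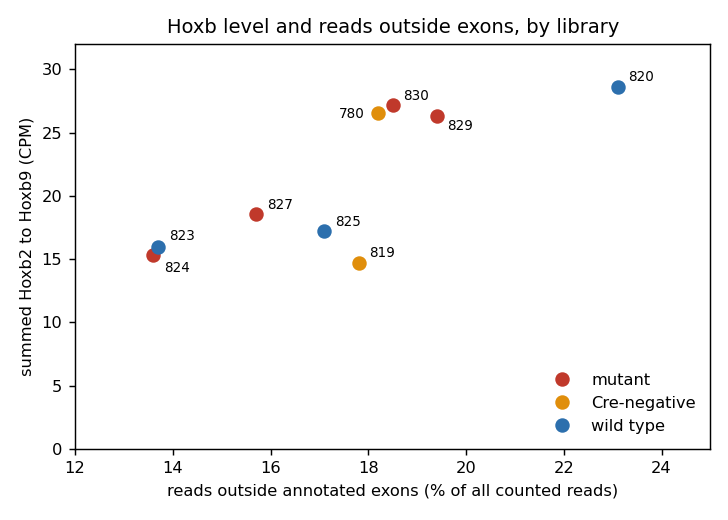
Each point is 1 library, labelled by its number, with the percent of all counted reads that fell outside annotated exons on the horizontal axis (not drawn from 0) and the summed CPM of Hoxb2 to Hoxb9 on the vertical axis. Mutant M829 and M830, Cre-negative C780 and wild-type W820 stand at 26.3 to 28.6 CPM and the other 5 libraries at 14.7 to 18.5 CPM.

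Among the members, Pearson correlations of log2 CPM over the 9 libraries were above 0 for all 28 pairs, from 0.23 to 0.92 with a median of 0.69. Hoxb2 and Hoxb3os correlated at 0.95, above Hoxb2 with any member, and Hoxb3 and Hoxb3os at 0.85. These points share library composition and, for the overlapping genes, possibly reads. Against the mean centred log2 CPM of the 8 members, the most alike of 11747 protein-coding genes with a mean of at least 1 CPM were Appl2 (r = 0.97), Spo11 (0.96) and Ikbke (0.96). Appl2 encodes an endosomal adaptor and ranged from 47.4 to 86.9 CPM, and Spo11 encodes the enzyme that makes meiotic DNA breaks and ranged from 6.55 to 22.3 CPM. Anks3, Plekhg2, Wdr13, Catsperg1, Xkr6, Gabbr1 and Dock3 completed the first 10, with r of about 0.95 to 0.96. The most opposite was Rpl22, a ribosomal protein gene (r = -0.99, 577 to 738 CPM), followed by Fancl, Setd3, Rhoa, Smad2, Mrpl19, Mief1, Ruvbl1, Ndufs4 and Tcea1. With 9 libraries and 11747 genes, coefficients of this size are a ranking only, and 61 genes had r above 0.9.

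The partners and regulators of Hox genes were counted in the same edgeR fits. As 0 of the 18576 genes tested passed there (0%), that no listed gene passed was settled beforehand. This holds for the stem cell and blood cell lists below as well, and says nothing of those genes in particular. None of the 8 Hoxa genes tested of 11, of the 8 Meis, Pbx and Pknox genes tested of 9, of the 17 genes of the MLL, Menin and DOT1L complexes, of the 26 Polycomb genes or of the 13 tested upstream regulators of 16 (Cdx, USF, NF-Y and retinoid receptor genes, Ctcf and Yy1) passed in any of the 3 comparisons. Hoxa genes had medians of 0.07 on the log2 scale for mutant over wild type, -0.09 for Cre-negative over wild type and 0.14 for mutant over Cre-negative. Hoxa2, the Hoxa counterpart of Hoxb2, averaged 2.10 ± 0.219 CPM in mutant (SD, n = 4) and 1.40 ± 0.234 CPM in wild type (SD, n = 3). Its log2 fold change was 0.58 (SE 0.31, adjusted p = 0.998 in edgeR). The Polycomb median was -0.10 for mutant over wild type, with 8 genes above 0 and 18 below (45.7% of all genes tested were above 0). Mtf2, a Polycomb recruiter, averaged 229 ± 5.91 CPM in mutant (SD, n = 4) and 269 ± 21.5 CPM in wild type (SD, n = 3), with an unadjusted p = 0.0382 and an adjusted p = 0.998 in edgeR.

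The DNA-binding partners of Hoxb proteins were far more abundant in sum than the cluster, at 728 to 753 CPM in mutant, 595 and 701 CPM in Cre-negative and 680 to 759 CPM in wild-type libraries. Meis2 had the lowest unadjusted p of them, with a log2 fold change of mutant over wild type of -2.09 (SE 0.65, unadjusted p = 0.00907, adjusted p = 0.998 in edgeR), at means of 0.113 CPM in mutant and 0.486 CPM in wild type. The groups overlapped, from 0.0536 to 0.171 CPM in mutant and from 0.161 to 0.681 CPM in wild type. The lowest mutant value equals 3 counts, so Meis2 lies close to the limit of these libraries. In the MLL complex list, Mllt3, whose product reads acylated histones and maintains stem cells, averaged 92.9 CPM in Cre-negative (n = 2) and 66.3 CPM in wild type (n = 3), with a log2 fold change of 0.49 (SE 0.17, adjusted p = 0.823 in edgeR). It was 0.22 without C780 and 0.67 without C819. Of the 20 genes of long-term stem cells, 17 had log2 fold changes above 0 in mutant over wild type (median 0.17) and none passed. Of 13 genes of lymphoid-primed progenitors 8 were above 0 (median 0.02), and of all genes tested 45.7% were.

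Markers of other blood cells were set beside these values because an LSK sort can carry over such cells. In mutant over wild type all 7 B cell markers and all 7 neutrophil markers had log2 fold changes above 0 (medians 0.90 and 1.44), as had all 5 megakaryocyte markers (median 0.32), and none passed. Of erythroid markers 3 were above 0 and 6 below, and of monocyte and macrophage markers 2 and 4. Mast cell and basophil markers had 1 above 0 and 4 below, and T and NK cell markers 3 and 1. Of all genes tested, 45.7% were above 0. In Cre-negative over wild type all 7 B cell markers (median 0.67), all 7 neutrophil markers (1.06), all 6 monocyte and macrophage markers (0.60) and all 5 mast cell and basophil markers (0.27) were above 0, and none passed. Erythroid markers had 8 above 0 and 1 below (median 2.36), with C819 far the highest in their sum. Megakaryocyte markers had 4 above 0 and 1 below, and T and NK cell markers 3 and 1. Of all genes tested, 53.2% were above 0 in this comparison. B cell markers summed to 44.7 to 61.1 CPM in mutant, 35.0 and 55.8 CPM in Cre-negative and 34.6 to 46.6 CPM in wild-type libraries. Neutrophil markers summed to 135 to 411 CPM in mutant, 39.6 and 325 CPM in Cre-negative and 52.3 to 165 CPM in wild-type libraries. Megakaryocyte markers summed to 286 to 367 CPM in mutant, 243 and 343 CPM in Cre-negative and 259 to 303 CPM in wild-type libraries. No B cell or neutrophil marker was at 0 in any group. Their part in the Hoxb2 values was not tested.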

How the data were processed

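Total RNA of the sorted cells was made into stranded libraries after removal of ribosomal RNA, per the labels' protocols. The tools named in the submitters' processing notes are STAR, DESeq2 and HTSeq 0.5.3p3, and the build is mm10 (GRCm38). For the annotation, strand setting and other versions, nothing is given in the sources used here. The authors deposited raw counts per Ensembl gene, which were used for every result. Their second deposited table is a scaled signal that equals the counts divided by 1 factor per library (relative spread 9.87e-15) and was not tested. Left out were 5 rows without a gene, with 40.5% to 47.3% of counted reads.

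Groups and library numbers came from the sample titles. Libraries of 1 group differed by at least 13.4 chi-square per degree of freedom, so each counted as 1 replicate. GENCODE M21 named 37607 of 39179 rows. Genes kept by filterByExpr (18576) were scaled by TMM and fitted with the quasi-likelihood test of edgeR 4.0.16 in R 4.3.3 on all 9 libraries, two-sided, with Benjamini-Hochberg adjustment over all genes at 0.05. Standard errors are the log2 fold change over the square root of F. CPM uses the scaled library sizes. Correlations used log2(CPM + 0.1). Levels per kilobase used the union of annotated exons. DESeq2 1.42.0, limma-voom 3.58.1 with sample quality weights, RLE or upper-quartile scaling, other filters, a Y-linked covariate, fits of only the groups compared and leaving out each library served as alternatives. The script for edgeR was tested on simulated data.

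The members and the gene lists were chosen with earlier results of these data known. The rule named the 8 members, genes within 100 kb, Dnmt3a, up to 4 members per list with the lowest p, and the 10 most and 10 least alike genes. Ratios to Hoxb4 and Hoxb3os, the covariate for reads outside exons and the free exon length were added after the values were seen.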

Additional observations from a re-analysis of the deposited data

Results flagged for a closer look

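Of 51 values tested over the 4 mutant libraries, 1 had a library far from the other 3: the summed erythroid markers, at 230 CPM in mutant M829 against 126 to 138 CPM in the other mutant libraries, a gap of 0.886 of the range. Chance alone flags about 1 in 20 such sets of values. The Hoxb sum of mutant M829, 26.3 CPM, was close to that of mutant M830, 27.1 CPM, whose erythroid markers summed to 130 CPM. None of the 8 Hoxb genes had a mutant library this far from the rest.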

How the results depend on the processing

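No paired analysis was possible because the library numbers in the titles differ between the groups. DESeq2 called no Hoxb member in any of the 3 comparisons, and limma-voom called none for mutant over wild type. Fits that leave a lone Cre-negative library are not read for comparisons with that group. In all other alternatives 0 genes were called, so that no member passed there was settled beforehand. With the filter of 1 CPM in 4 libraries only 4 members were tested. Counts of genes called at an adjusted p under 0.05, 0 in edgeR on all 9 libraries, were 36, 55 and 22 in DESeq2 for mutant over wild type, Cre-negative over wild type and mutant over Cre-negative, and 13 in limma-voom with sample quality weights for mutant over wild type. With 1 library left out they ranged from 0 to 0, from 0 to 650 (650 without Cre-negative C780 and 62 without Cre-negative C819) and from 0 to 1835 (1835 without Cre-negative C780 and 9 without Cre-negative C819), where the lone Cre-negative library was assumed to vary like the other groups. The cause of these shifts was not tested.

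These log2 fold changes turned in direction, for causes that were not tested. For Hoxb5 of mutant over wild type the value was 0.0070 with RLE scaling and in DESeq2, 0.023 with upper-quartile scaling, 0.21 in limma-voom, 0.024 with a filter of 1 CPM in 4 libraries, 0.011 in the fit of both groups alone and 0.12 with the covariate for reads outside exons. With the Y-linked covariate Hoxb4 was -0.024 for mutant over wild type, 0.016 for Cre-negative over wild type and -0.040 for mutant over Cre-negative, and Hoxb3 and Hoxb6 were -0.0042 and -0.15 for mutant over Cre-negative. Hoxb4 of Cre-negative over wild type was 0.15 in limma-voom and 0.025 with the covariate for reads outside exons. In limma-voom Hoxb7, Hoxb8, Hoxb9 and Mtf2 of Cre-negative over wild type were -0.25, -0.42, -0.99 and 0.0043, and Hoxb9 and Hoxb5os of mutant over Cre-negative 1.17 and 0.0035. Among the members' values under settings other than leaving out a library, 18 turned and 184 kept their direction.

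With 1 library left out, the log2 fold changes of mutant over wild type ranged from -0.092 to 0.37 for Hoxb4, -0.18 to 0.26 for Hoxb5, -0.030 to 0.36 for Hoxb7, -0.26 to 0.27 for Hoxb9, -0.034 to 0.098 for Dnmt3a and -0.0053 to 0.30 for Mllt3. For Cre-negative over wild type they ranged from -0.41 to 0.71 for Hoxb3, -0.44 to 0.29 for Hoxb4, -0.97 to 0.17 for Hoxb5, -1.08 to 0.71 for Hoxb7, -4.81 to 2.25 for Hoxb8, -3.52 to 1.23 for Hoxb9, -0.12 to 1.29 for Hoxb5os, -0.62 to 0.75 for Hoxa2 and -0.23 to 0.024 for Mtf2. For mutant over Cre-negative they ranged from -0.35 to 0.70 for Hoxb3, -0.24 to 0.49 for Hoxb4, -0.16 to 0.98 for Hoxb5, -0.36 to 0.73 for Hoxb6, -0.55 to 1.24 for Hoxb7, -0.73 to 6.34 for Hoxb8, -1.19 to 3.55 for Hoxb9, -0.76 to 0.64 for Hoxb5os, -0.11 to 0.59 for Hoxb3os, -0.15 to 1.22 for Hoxa2, -1.78 to 0.33 for Meis2 and -0.24 to 0.014 for Mtf2. Hoxb2 kept its direction in all 3 comparisons, from 0.95 to 1.40, 0.17 to 0.77 and 0.37 to 0.96. For mutant over wild type this was settled beforehand, because no Hoxb2 value overlapped between these groups. Hoxb3, Hoxb6 and, where it was tested, Hoxb8 also kept their direction in mutant over wild type. So did Hoxb6 in Cre-negative over wild type. Depth limits Hoxb8 and Hoxb9, with 0 to 26 counts per library.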
